A study of Mus musculus with 4 samples.

Results

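The genes described here belong to 4 mouse gene families that exist as clusters of related copies, some of them near-identical. The families are known for transcripts in the cleavage-stage embryo: Usp17l, Pramel, Tdpoz and Obox. The gene Eif1ad, the single-copy relative of a further such family, was taken with them. Members were all probe sets of the array that the platform annotation pairs with a single gene symbol beginning with Usp17l, Pramel, Pramef, Tdpoz, Obox or Eif1ad. The rule found 48 genes measured by 50 probe sets, of 22180 genes and 23521 probe sets with a single symbol in all, and no symbol began with Pramef. Pramel gave 31 probe sets, Tdpoz 7, Obox 6, Usp17l 5 and Eif1ad 1.

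The study measured total RNA of mouse embryonic stem cells whose own Prdm14 gene had been knocked out. Used here were 4 Affymetrix GeneAtlas arrays of strip 2, with 1 array for each group, and the other strip of the study was not analysed. PRDM14 is a DNA-binding regulator of pluripotency, and CBFA2T proteins are co-repressors that bind it in mouse. The 4 groups carried PRDM14 and CBFA2T of the sea urchin, sea urchin PRDM14 alone, mouse PRDM14, or an empty vector. All were Prdm14 knockout cells kept in 2i and LIF medium (inhibitors and a cytokine that hold stem cells in the naive state) on STO cells, a mouse fibroblast line. The labels do not say how the transgenes were driven, how many clones a group holds or which part of Prdm14 was deleted. The values are log2 expression values from RMA (robust multi-array average, which normalizes all arrays together and summarises the probes of a probe set), so a difference of 1 is 2-fold. With 1 array per group no difference has a replicate check and no test was possible: higher and lower are said of the measured values, and probe sets are counted past a threshold of 2-fold.

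Many copies of these families sit side by side on a chromosome, and some share long stretches of sequence. USP17-like proteins are deubiquitinases, which remove ubiquitin from other proteins. PRAMEL proteins have leucine-rich repeats and some are substrate receptors of Cullin-2 ubiquitin ligases. TDPOZ proteins carry TRAF and POZ domains, and OBOX proteins are homeodomain transcription factors of the oocyte and early embryo, where they act at the onset of embryonic transcription in mouse. In cultures of mouse embryonic stem cells a small and changing fraction of cells, the 2-cell-like cells, transcribes many genes of the 2-cell embryo, among them copies of several of these families.

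The only members past 2-fold were found on the array of cells with sea urchin CBFA2T beside PRDM14: Usp17le and Pramel19 were higher on it than on each of the other arrays. Pramel14 and Pramel30, a pair of Pramel genes from the chromosome 4 cluster chosen after their values were seen, were higher on it by smaller amounts. Both stayed below 4.84, the median of all single-gene probe sets, on every array. Pramel20 and Tdpoz8 were higher on it than with the empty vector by amounts near that of Pramel30. Obox3 was lower on it. Outside the members, some probe sets paired with several genes were also more than 2-fold higher on it. Between the arrays of sea urchin PRDM14 alone, mouse PRDM14 and empty vector no member differed by 2-fold in any pair. In RNA from a whole culture, fewer cells of a type and less RNA per cell cannot be told apart.

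The promoters of the Pramel genes with the largest differences are shown here, so that the near-identical pair that holds the PRDM14 motif can be set beside the gene with the larger difference. They run from 250 bases before to 50 after the annotated start, on GRCm38.p6, from RefSeq, 5′ to 3′ on the gene's strand. Capitals mark GGTCTCTAA, the core of the published PRDM14 binding motif. Pramel19 lies at chr4:101940157-101940456 on the plus strand, Pramel14 at chr4:143994320-143994619 on the minus strand and Pramel30 at chr4:144329999-144330298 on the plus strand.
Pramel19: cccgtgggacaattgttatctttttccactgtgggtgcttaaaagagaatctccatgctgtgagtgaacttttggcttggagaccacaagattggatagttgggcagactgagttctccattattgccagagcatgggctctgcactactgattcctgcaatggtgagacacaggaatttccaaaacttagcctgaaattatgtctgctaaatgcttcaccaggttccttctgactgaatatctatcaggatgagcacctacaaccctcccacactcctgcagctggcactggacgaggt
Pramel14: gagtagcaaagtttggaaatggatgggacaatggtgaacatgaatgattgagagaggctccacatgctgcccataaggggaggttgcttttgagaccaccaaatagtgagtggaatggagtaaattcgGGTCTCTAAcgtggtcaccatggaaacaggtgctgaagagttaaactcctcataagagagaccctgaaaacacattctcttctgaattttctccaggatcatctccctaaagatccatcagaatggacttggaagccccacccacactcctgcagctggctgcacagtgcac
Pramel30: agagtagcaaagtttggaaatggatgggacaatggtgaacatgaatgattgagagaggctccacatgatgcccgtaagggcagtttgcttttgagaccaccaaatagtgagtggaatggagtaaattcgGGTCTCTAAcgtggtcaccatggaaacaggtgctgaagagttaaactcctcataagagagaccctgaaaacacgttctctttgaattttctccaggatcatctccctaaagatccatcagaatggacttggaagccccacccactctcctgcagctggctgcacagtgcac
The promoters of Pramel14 and Pramel30 were identical at 97.3% of aligned positions, and each held the motif once, beginning at position -122 from the start in Pramel14 and -121 in Pramel30. The Pramel19 promoter held none. Usp17le was not in the promoter table.

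**Figure D1:**
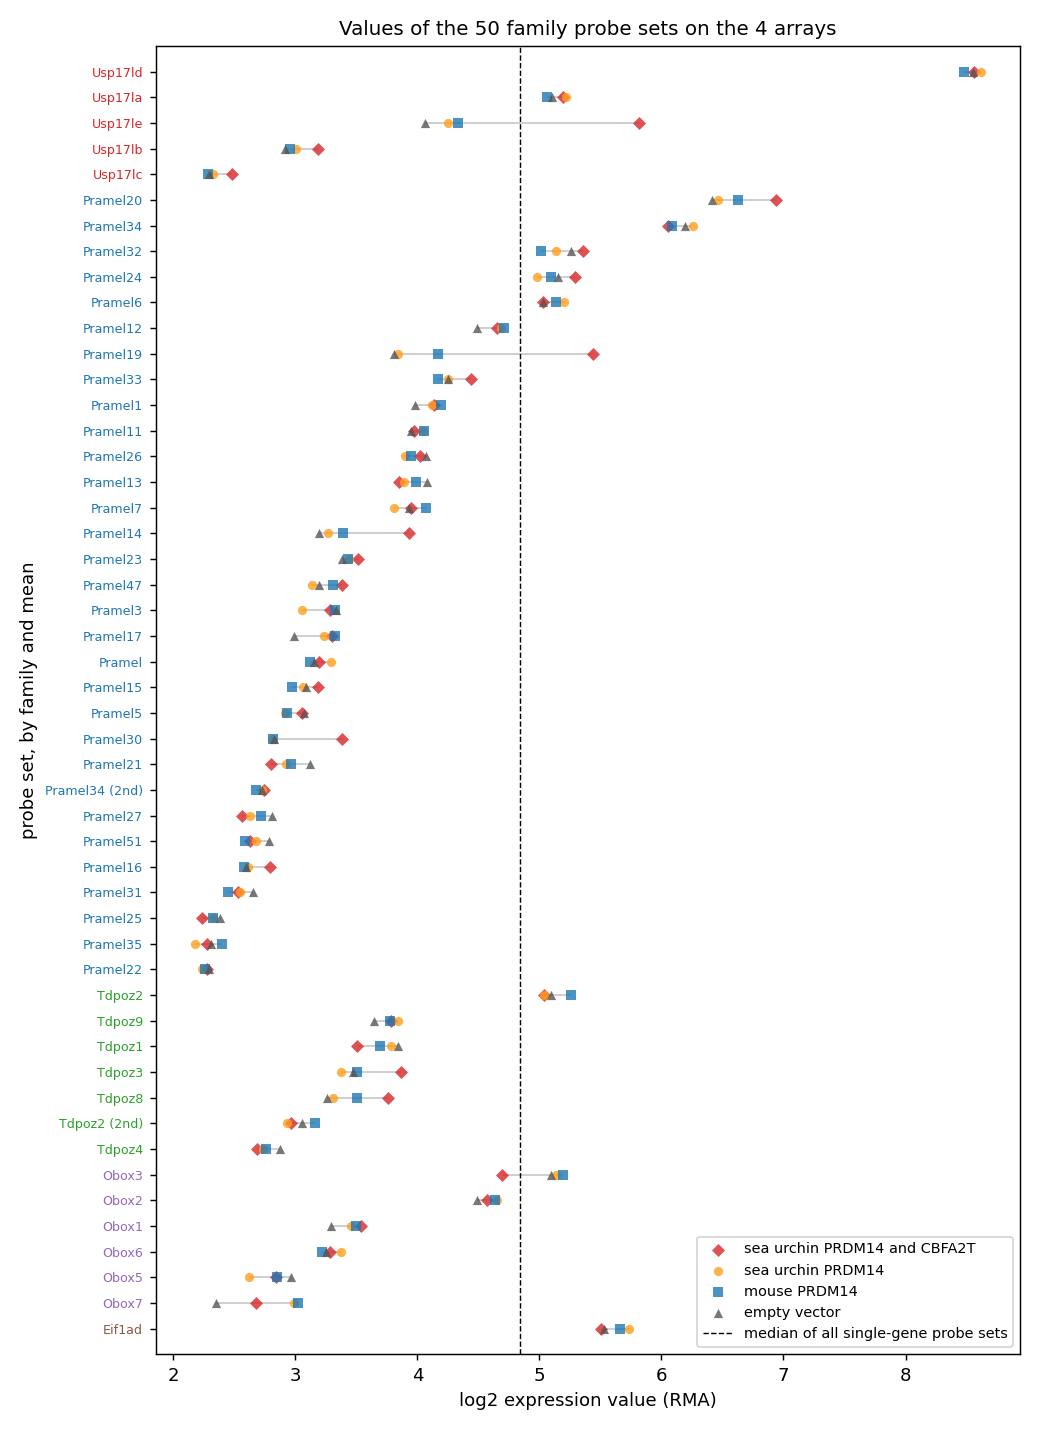
Log2 expression value (RMA, x axis) of each of the 50 family probe sets (rows, ordered by family and by mean) on the 4 arrays, 1 symbol per array. The dashed line is 4.84, the median of all single-gene probe sets. The red diamonds of Usp17le and Pramel19 stand apart at 5.82 and 5.44, while the other arrays lie at or below 4.33 for Usp17le and 4.17 for Pramel19.

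Some facts of the arrays bear on every value. The 4 arrays had medians over all probe sets of 4.54 to 4.55. Prdm14 itself was at 5.53 with sea urchin PRDM14 and CBFA2T, 5.77 with sea urchin PRDM14, 5.57 with mouse PRDM14 and 5.71 with the empty vector, so this probe set did not separate the groups and could not be used to check the labels. All 18 listed markers of embryonic stem cells passed the value of 4.84, and 1 of them, the Nodal co-receptor gene Tdgf1, was past 2-fold in any pair: it was lower with CBFA2T than with sea urchin PRDM14 alone (7.58 against 8.74). Of the 19 measured markers of fibroblasts, which the feeder layer could add, 14 passed 4.84. Their median was 5.83 with sea urchin PRDM14 and CBFA2T, 5.72 with sea urchin PRDM14, 5.78 with mouse PRDM14 and 5.75 with the empty vector, and none was past 2-fold in any pair. Of the listed markers of oocytes and early germ cells 18 were measured, and of those of spermatids 7, and in both lists none was past 2-fold in any pair.

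The family probe sets were mostly dim. Of the 50, 12 reached 4.84 on at least 1 array, 9 of them on all 4, and 38 on none. Usp17le and Pramel19 reached it only on the CBFA2T array, where they are high, and Obox3 reached it on the other 3 arrays. Signals of different probe sets depend on their probes as well as on RNA, so levels were compared between arrays for each probe set and not between genes.

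The Usp17l family, of which RefSeq lists 6 genes and the array measures 5 on their own, lies on chromosome 7. Usp17le had 5.82 with sea urchin PRDM14 and CBFA2T, 4.25 with sea urchin PRDM14, 4.33 with mouse PRDM14 and 4.07 with the empty vector. The CBFA2T array was the high one, and the other 3 lay within 0.27 of each other. Its difference was 1.75 (3.37-fold) against the empty vector, 1.57 (2.97-fold) against sea urchin PRDM14 and 1.49 (2.80-fold) against mouse PRDM14. Among all 23521 probe sets this was rank 10 of the differences from the empty vector and rank 11 of those from sea urchin PRDM14. These comparisons share the CBFA2T array, so they are not independent of each other.

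The other Usp17l genes did not come near that size. Usp17ld, the member with the highest mean value, had 8.56 with sea urchin PRDM14 and CBFA2T, 8.62 with sea urchin PRDM14, 8.48 with mouse PRDM14 and 8.56 with the empty vector. Usp17la, the deubiquitinase first described as DUB-1, had 5.19 with sea urchin PRDM14 and CBFA2T, 5.22 with sea urchin PRDM14, 5.07 with mouse PRDM14 and 5.10 with the empty vector. Neither was highest on the CBFA2T array. Usp17lb had 3.18 with sea urchin PRDM14 and CBFA2T, 3.01 with sea urchin PRDM14, 2.95 with mouse PRDM14 and 2.91 with the empty vector. Usp17lc had 2.48 with sea urchin PRDM14 and CBFA2T, 2.32 with sea urchin PRDM14, 2.28 with mouse PRDM14 and 2.29 with the empty vector. Both were highest on the CBFA2T array, by 0.27 and 0.19 over the empty vector, at dim values. Usp17la, Usp17lb and Usp17lc are named after their values were seen. In gene order Usp17le is followed by the pseudogene Gm4887, then by Usp17lb and Usp17la. Along these neighbours the CBFA2T array exceeded the empty vector by 1.75 in Usp17le, 0.27 in Usp17lb and 0.09 in Usp17la. The nearest measured gene on the other side, the odorant receptor gene Olfr663, had 2.63 with sea urchin PRDM14 and CBFA2T, 2.52 with sea urchin PRDM14, 2.78 with mouse PRDM14 and 2.62 with the empty vector.

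The Pramel family was the largest, with 30 genes measured on their own out of 48 in RefSeq, on chromosomes 4, 5, 2, X and 12. Pramel19, on chromosome 4, had 5.44 with sea urchin PRDM14 and CBFA2T, 3.84 with sea urchin PRDM14, 4.17 with mouse PRDM14 and 3.81 with the empty vector. The CBFA2T array was high, and the other 3 spanned 0.36, with mouse PRDM14 the highest of them. Its difference was 1.63 (3.09-fold) against the empty vector, 1.60 (3.02-fold) against sea urchin PRDM14 and 1.27 (2.41-fold) against mouse PRDM14, ranks 11 and 10 among all probe sets in the first 2 of these. Pramel18, the gene next to it, had no probe set of its own. The nearest measured genes on either side, C130073F10Rik and Gm12789, were not high on the CBFA2T array by any such amount: C130073F10Rik lay between 4.29 and 4.33 on the 4 arrays and Gm12789 between 2.76 and 3.07.

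Pramel20, the Pramel gene with the highest mean value, had 6.94 with sea urchin PRDM14 and CBFA2T, 6.46 with sea urchin PRDM14, 6.63 with mouse PRDM14 and 6.42 with the empty vector. The CBFA2T array was highest, by 0.53 over the empty vector and by 0.31 over mouse PRDM14, and the difference did not reach 2-fold. Pramel14 had 3.93 with sea urchin PRDM14 and CBFA2T, 3.27 with sea urchin PRDM14, 3.39 with mouse PRDM14 and 3.19 with the empty vector, a difference from the empty vector of 0.74. Pramel30, its near copy at the promoter, had 3.38 with sea urchin PRDM14 and CBFA2T, 2.81 with sea urchin PRDM14, 2.82 with mouse PRDM14 and 2.83 with the empty vector. The last 3 lay within 0.02 of each other, and the CBFA2T array was above the empty vector by 0.55. Both genes, chosen after their values were seen, stayed below 4.84 on every array.

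Pramel6 and Pramel7 are neighbours on chromosome 2 and the members with the best-known role in stem cells: PRAMEL7 holds cells in the naive state and, with Cullin-2, leads to loss of UHRF1, the protein that brings the maintenance DNA methyltransferase to DNA. Pramel6 had 5.03 with sea urchin PRDM14 and CBFA2T, 5.20 with sea urchin PRDM14, 5.13 with mouse PRDM14 and 5.03 with the empty vector. Pramel7 had 3.95 with sea urchin PRDM14 and CBFA2T, 3.80 with sea urchin PRDM14, 4.07 with mouse PRDM14 and 3.93 with the empty vector. The CBFA2T and empty vector arrays differed by 0.01 in Pramel6 and by 0.02 in Pramel7. Of the genes listed as partners and target of PRAMEL ligases, 4 of 5 were measured and none was past 2-fold in any pair. Uhrf1 had 7.52 with sea urchin PRDM14 and CBFA2T, 7.29 with sea urchin PRDM14, 7.53 with mouse PRDM14 and 7.59 with the empty vector. Cul2, the scaffold of the ligase, lay between 6.07 and 6.26 on the 4 arrays. Both were named after their values were seen.

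Over the family, 19 of the 31 Pramel probe sets were above the empty vector on the CBFA2T array, with a median difference of 0.03. The chromosome 4 cluster from Pramel1 to Pramel13 holds 18 measured family genes over 41 places in gene order. Of these 10 were above the empty vector and 8 below, from -0.32 in Pramel21 to 0.74 in Pramel14, with a median of 0.06. Genes above and below the empty vector lay beside each other in the cluster: Pramel30 (0.55) is followed by Pramel31 (-0.12), Pramel15 (0.10) and Pramel13 (-0.23). The 2 probe sets of Pramel34 lay between 6.05 and 6.26 and between 2.68 and 2.74, and in neither did the CBFA2T array stand above the other arrays by more than 0.01. Pramel34 is also a symbol of probe sets paired with several genes, and these were higher on the CBFA2T array than with the empty vector by 0.56 to 0.72. The same holds for Pramel16, Pramel20 and Pramel31 of the chromosome 4 cluster, whose shared probe sets were higher by 1.93 to 2.28. Pramel31's own probe set was dim, at 2.45 to 2.65. The order along the cluster given here rests on probe sets with 1 symbol.

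**Figure D2:**
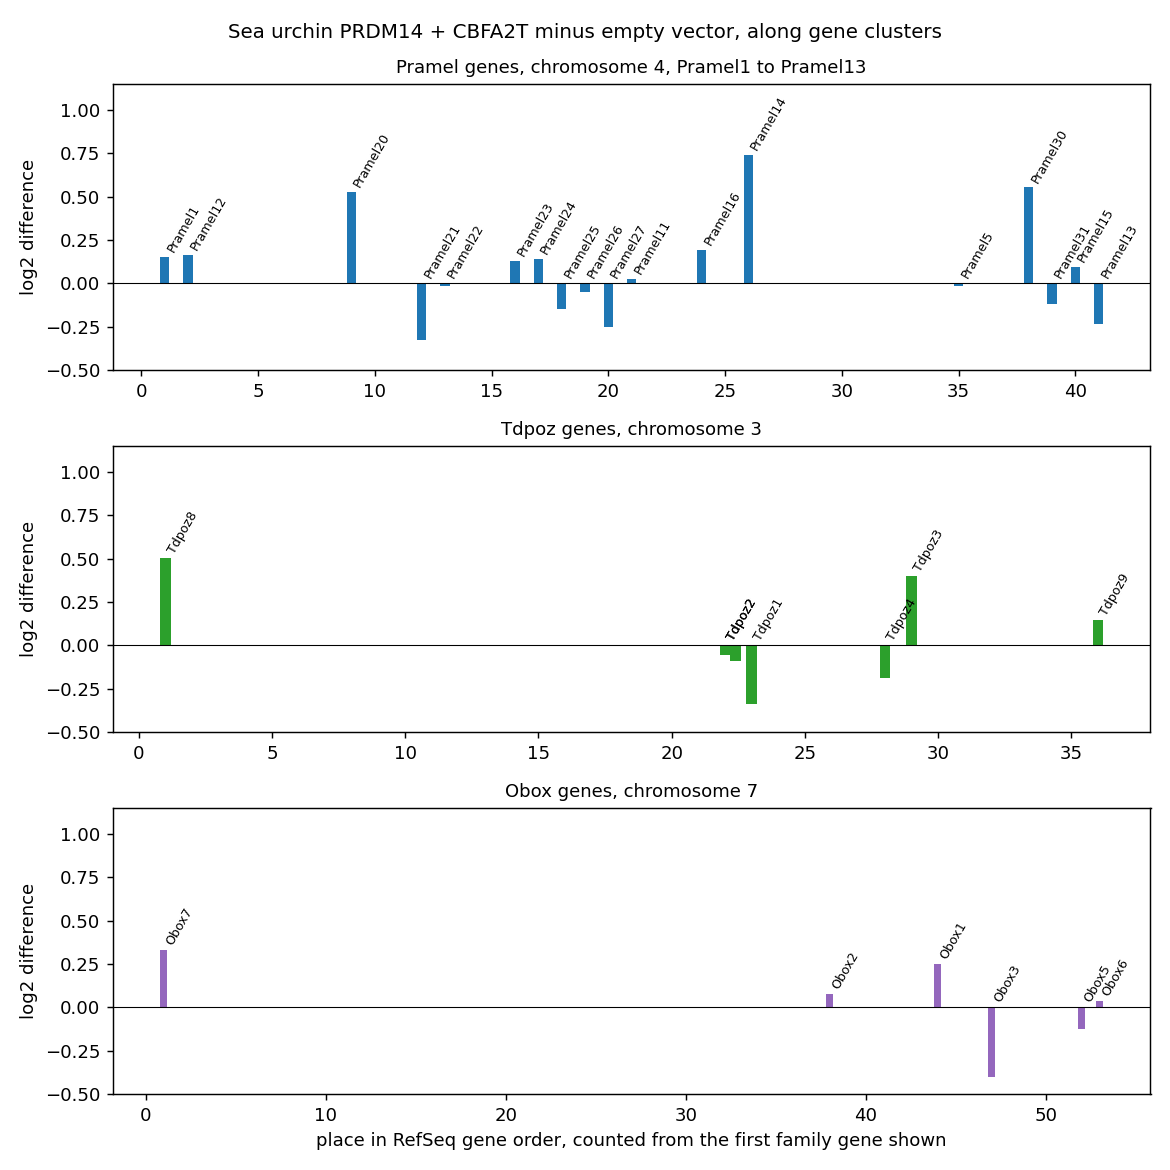
Log2 difference of the CBFA2T array from the empty vector (bars from 0) for family genes along 3 clusters, by their place in RefSeq gene order counted from the first family gene shown (x axis); places without a bar are genes of no family or with no probe set of their own. Pramel14 (0.74), Pramel30 (0.55) and Pramel20 (0.53) are separated by genes between -0.32 and 0.19, and the tallest Tdpoz and Obox bars are Tdpoz8 (0.50) and Obox7 (0.33).

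The Tdpoz family gave 7 probe sets for 6 genes, all on chromosome 3. Tdpoz8, with the largest range of the family, had 3.76 with sea urchin PRDM14 and CBFA2T, 3.31 with sea urchin PRDM14, 3.50 with mouse PRDM14 and 3.26 with the empty vector. Tdpoz3, chosen after its values were seen, had 3.87 with sea urchin PRDM14 and CBFA2T, 3.37 with sea urchin PRDM14, 3.51 with mouse PRDM14 and 3.47 with the empty vector. In both the CBFA2T array was highest, by 0.50 and 0.40 over the empty vector, below 1.5-fold and at dim values. Tdpoz2, the member of the family with the highest mean, had 2 probe sets. The first had 5.04 with sea urchin PRDM14 and CBFA2T, 5.04 with sea urchin PRDM14, 5.25 with mouse PRDM14 and 5.09 with the empty vector. The second had 2.97 with sea urchin PRDM14 and CBFA2T, 2.93 with sea urchin PRDM14, 3.16 with mouse PRDM14 and 3.06 with the empty vector. The mouse PRDM14 array was the highest in both, by 0.16 and 0.11 over the empty vector. Tdpoz1 had 3.50 with sea urchin PRDM14 and CBFA2T and 3.84 with the empty vector, a difference of -0.34. In the family 3 of 7 probe sets were above the empty vector on the CBFA2T array, and the median difference was -0.06.

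The Obox family gave 6 genes of 53 in RefSeq, all on chromosome 7. Obox3, which is transcribed from the embryo's own genome, had 4.69 with sea urchin PRDM14 and CBFA2T, 5.13 with sea urchin PRDM14, 5.19 with mouse PRDM14 and 5.09 with the empty vector. The CBFA2T array was the low one, by 0.40 against the empty vector, 0.44 against sea urchin PRDM14 and 0.50 against mouse PRDM14, while the other 3 arrays lay within 0.10. Obox7 had 2.68 with sea urchin PRDM14 and CBFA2T, 2.99 with sea urchin PRDM14, 3.02 with mouse PRDM14 and 2.35 with the empty vector. Here the empty vector was the low array and the 2 arrays with PRDM14 alone were high, by 0.64 for sea urchin PRDM14 and 0.67 for mouse PRDM14, all at dim values. Obox1, Obox2, Obox5 and Obox6, among them maternal transcripts of the oocyte, differed between the CBFA2T array and the empty vector by 0.25, 0.08, -0.12 and 0.03. Eif1ad, whose multicopy relatives are 2-cell genes, had 5.51 with sea urchin PRDM14 and CBFA2T, 5.74 with sea urchin PRDM14, 5.66 with mouse PRDM14 and 5.53 with the empty vector.

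Between the CBFA2T array and the empty vector, 2 of the 50 members were at least 2-fold higher, Usp17le and Pramel19, where 0.102% of all single-gene probe sets were. None was 2-fold lower (0.0255% of all), and at 1.5-fold Pramel14 joined them, for 3 members where 0.37% of all were higher. The median difference of the members was 0.04, against 0.00 for all, and 31 of the 50 (62.0%) were above 0, against 50.3% of all. Against sea urchin PRDM14 alone, which by its label lacks only CBFA2T, the same 2 members were at least 2-fold higher (0.0808% of all). None was lower (0.0255%). CBFA2T and other differences between these cultures cannot be told apart with 1 array per group. With Pramel14 there were again 3 at 1.5-fold (0.255%), and the median was 0.04. Against mouse PRDM14 the 2 members were higher (0.085%), none lower (0.0298%), no further member reached 1.5-fold (0.315%), and the median was 0.04.

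Among the arrays without CBFA2T no member was past 2-fold. For sea urchin PRDM14 minus empty vector the shares of all probe sets were 0.017% higher and 0.00425% lower, and for mouse PRDM14 minus empty vector 0.0298% higher and 0.0128% lower. For sea urchin PRDM14 minus mouse PRDM14 they were 0.0255% higher and 0.0085% lower, so that with 50 members a count of 0 is close to the background. At 1.5-fold 1 member, Obox7, was higher with sea urchin PRDM14 than with the empty vector (0.225% of all) and with mouse PRDM14 (0.187%). The members' medians in these 3 pairs were 0.01, -0.01 and -0.02.

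**Figure D3:**
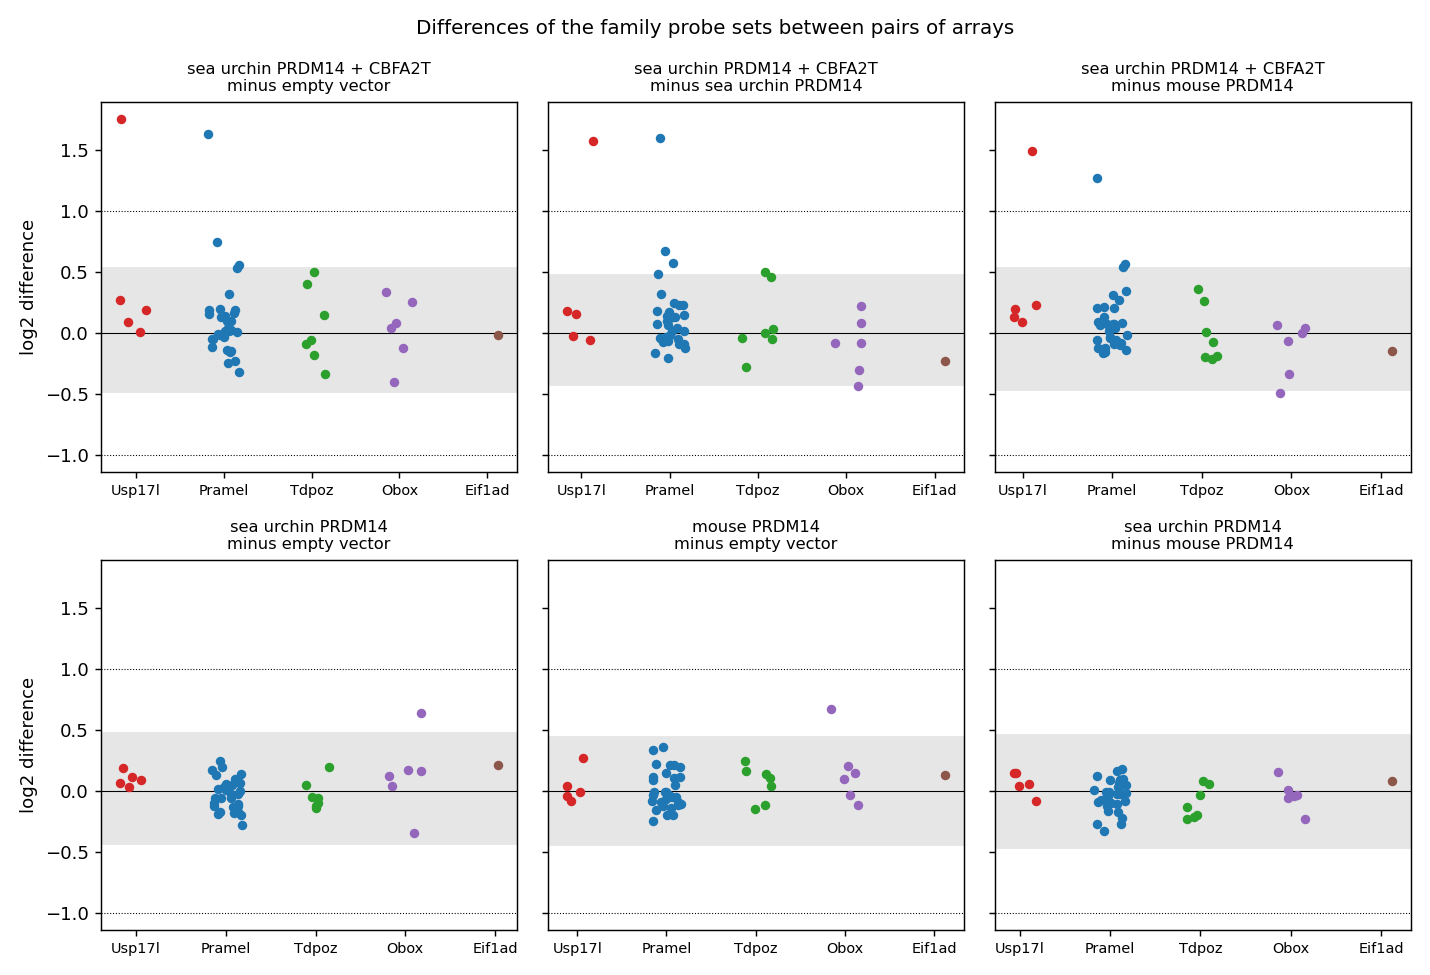
Log2 difference (y axis) of each family probe set, by family, for the 6 pairs of arrays, each dot 1 probe set. The grey band holds the central 99% of all single-gene probe sets in that pair and the dotted lines mark 2-fold. In the upper row Usp17le and Pramel19 lie above the 2-fold line in all 3 pairs with the CBFA2T array, and in the lower row no dot reaches it.

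The spread of the other 3 arrays gives a scale for the CBFA2T array, though they hold 3 different transgenes and are not replicates. It lay above all 3 by more than their own range in 12 of the 50 members, where 7.27% of all single-gene probe sets did, and below all 3 by more than that in 3 members, where 6.26% of all did. The 12 were Usp17le, Usp17lb and Usp17lc, 7 Pramel probe sets (Pramel14, Pramel16, Pramel19, Pramel20, Pramel23, Pramel30 and Pramel33), and Tdpoz3 and Tdpoz8. The 3 were Obox3, Tdpoz1 and Pramel25. The range of the other 3 arrays had a median of 0.18 in the members and 0.15 in all. Apart from Usp17le and Pramel19 the excess over the highest other array was at most 0.55.

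**Figure D4:**
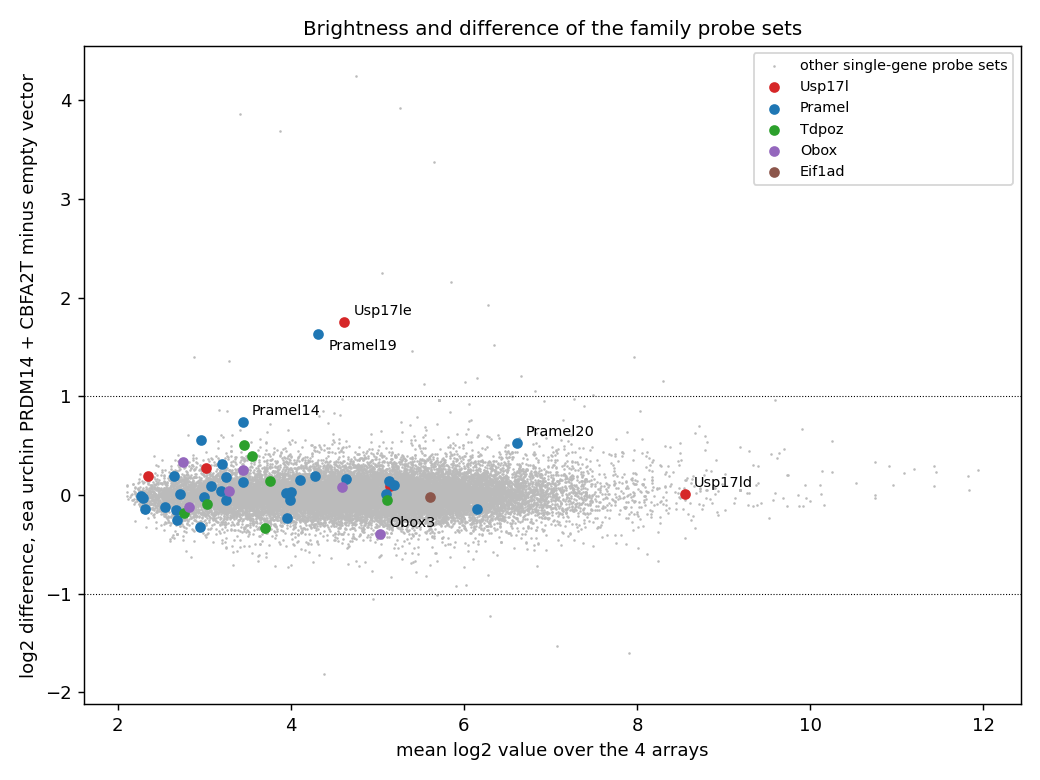
Log2 difference of the CBFA2T array from the empty vector (y axis) against the mean log2 value over the 4 arrays (x axis), with family probe sets in colour and all other single-gene probe sets in grey. Dotted lines mark 2-fold. Most family probe sets lie at the dim left side; Usp17le (1.75) and Pramel19 (1.63) lie above the line and Usp17ld, at the right, near 0.

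Promoters were searched for 4 short motifs, as a description of the members. Of the 48 genes, 40 had an entry in the promoter table, giving 41 promoters. GGTCTCTAA, searched on both strands, was in 2 of the 41 (4.88%), against 0.256% of 32851 promoters of the same length. Those 2 were Pramel14 and Pramel30, both on the plus strand, and since their promoters are near copies of one another the matches are not independent. Pramel16, Pramel20, Pramel23 and Pramel33, also above the other arrays, did not hold it. TGCACAC, the core of the ZSCAN4 motif, was in none of the 41, where 4.4% of all promoters held it. TAATCC, a homeodomain motif of the OTX type, was in 8 (19.5%, against 7.06%) and TATAAA, the sequence of the TATA box, in 10 (24.4%, against 13.6%). TATAAA was counted at any position and on both strands, from -242 in Pramel to -28 in Pramel26, so a match need not be a TATA box. Near copies hold some of the matches, as Tdpoz1 and Tdpoz9 (82.9% identical) or Usp17ld and Usp17lc (83.5%), so these are not independent. Both motifs occurred in genes that were higher, near equal and lower on the CBFA2T array than with the empty vector. TATAAA was in Pramel20 (0.53), Usp17lb (0.27), Usp17lc (0.19), Pramel23 (0.13), Pramel (0.04), Usp17ld (0.01), Pramel26 (-0.05), Pramel31 (-0.12), Pramel27 (-0.25) and Obox3 (-0.40). TAATCC was in Tdpoz8 (0.50), Pramel17 (0.31), Tdpoz9 (0.14), Pramel11 (0.03), Pramel5 (-0.02), Eif1ad (-0.02), Tdpoz1 (-0.34) and Obox3 (-0.40). A further annotated promoter of Tdpoz8 did not hold it. Pairs of Pramel promoters were identical at a median of 47.2% of aligned positions, from 41.0% to 99.7%. The most alike pair, Pramel33 and Pramel35 at 99.7%, differed from the empty vector by 0.19 and -0.03 on the CBFA2T array.

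The array cannot tell all copies apart. Of 116 genes of these families in RefSeq, 48 had a probe set of their own, 11 only probe sets shared with other genes, and 57 none, 47 of these being Obox genes. A further 45 probe sets were paired with several symbols of which at least 1 belonged to a family. They formed 15 gene groups, 13 of Pramel and 2 of Tdpoz, and some repeated each other's values exactly, which left 37 distinct sets of values. Of the 45, 16 (15 with distinct values) were at least 2-fold higher on the CBFA2T array than with the empty vector. Of all 1814 probe sets with several symbols, these 45 included, 1.76% were, and of the 1769 with no family symbol 16 were. Among the 45 there were 14 against sea urchin PRDM14 (1.54% of the 1814) and 13 against mouse PRDM14 (1.49%). None of the 45 was past 2-fold among the arrays without CBFA2T.

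All 16 family probe sets past 2-fold against the empty vector belonged to 3 Pramel groups. In a chromosome 4 group of 6 symbols, 3 of them Pramel, the 3 probe sets were at 6.81 to 7.04 with sea urchin PRDM14 and CBFA2T, at 4.43 to 4.70 with sea urchin PRDM14, at 4.67 to 4.94 with mouse PRDM14 and at 4.61 to 4.88 with the empty vector. In a chromosome 5 group of 11 symbols, of which 1 was Pramel, the 5 probe sets were at 5.67 to 6.02 with sea urchin PRDM14 and CBFA2T, against 3.59 to 4.01 with the empty vector. In another chromosome 5 group, of 4 symbols with 3 Pramel, the 10 probe sets were at 5.05 to 6.05 with sea urchin PRDM14 and CBFA2T, against 3.74 to 4.89 with the empty vector, and 8 of them were past 2-fold. In each probe set of these 3 groups the CBFA2T array was the highest, by at least 0.82 over every other array. The groups' symbols are not named here, since the probes cannot say which copy gave the signal. The 12 other groups differed between -0.15 and 0.74, and both Tdpoz groups were below 0, at -0.06 and -0.12.

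**Figure D5:**
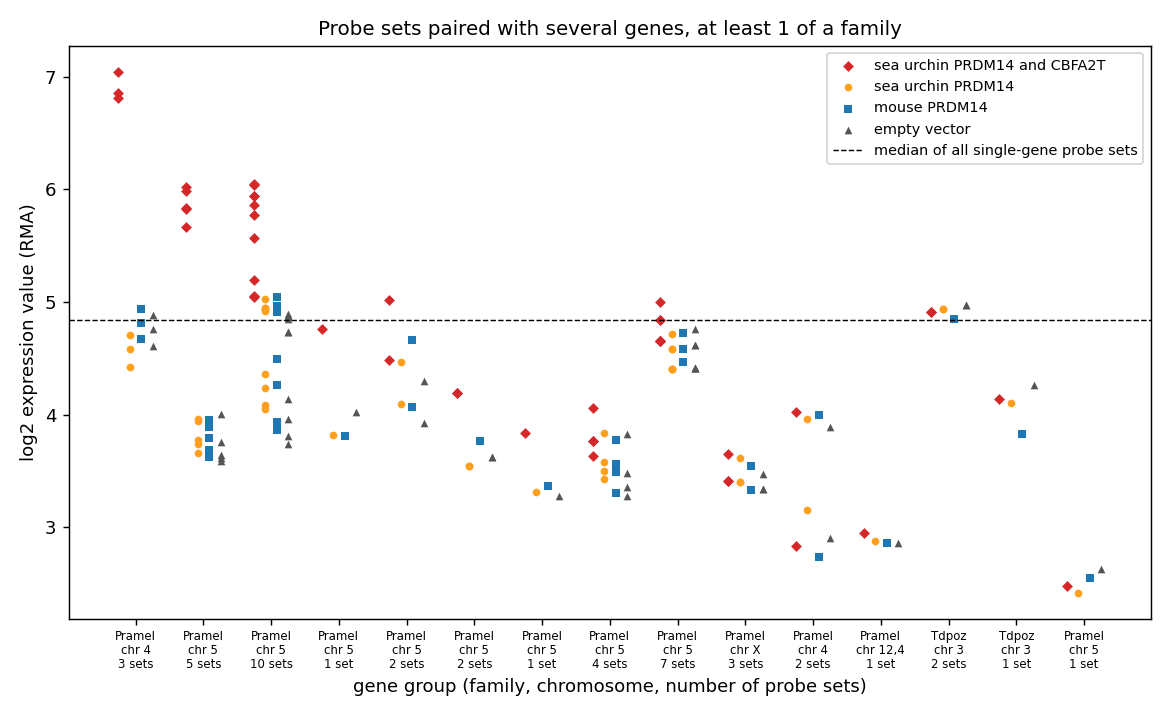
Log2 expression value (RMA, y axis) of the 45 probe sets paired with several genes, by gene group (x axis, with family, chromosome and number of probe sets), 1 symbol per array. The dashed line is 4.84. The first 3 groups, all Pramel, have the CBFA2T array at 5.05 to 7.04, and the Tdpoz groups show no such gap.

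Some other genes of the 2-cell embryo were higher on the same array, and most of those listed were not past 2-fold. Of the 54 genes on the list, which was drawn up with earlier results of these data known, 44 were measured. On the CBFA2T array 10 of the 44 were at least 2-fold higher than with the empty vector (0.102% of all probe sets), 11 than with sea urchin PRDM14 (0.0808%) and 11 than with mouse PRDM14 (0.085%), with none lower, and among the arrays without CBFA2T none was past 2-fold. The median difference of the list from the empty vector was 0.24, with 33 of 44 above 0. Zscan4e, of a zinc finger family whose transcripts mark 2-cell-like cells, had 8.07 with sea urchin PRDM14 and CBFA2T, 3.49 with sea urchin PRDM14, 3.64 with mouse PRDM14 and 3.82 with the empty vector. Zscan4b had 8.18 with sea urchin PRDM14 and CBFA2T, against 4.26 with the empty vector, and the predicted genes Gm5662 and Gm11543 had 6.34 and 6.56 with sea urchin PRDM14 and CBFA2T, against 2.47 and 2.87 with the empty vector. The CBFA2T array was the high one in each. Dppa2, an activator of 2-cell genes in mouse chosen after its values were seen, had 9.02 with sea urchin PRDM14 and CBFA2T, 7.66 with sea urchin PRDM14, 7.55 with mouse PRDM14 and 7.62 with the empty vector. Other genes of the 2-cell stage, also chosen after their values were seen, were not higher. Duxf3, a copy of the gene for DUX, a transcription factor that activates 2-cell genes, had 3.40 both with sea urchin PRDM14 and CBFA2T and with the empty vector. Zfp352 had 3.99 with sea urchin PRDM14 and CBFA2T and 4.13 with the empty vector, and Trim43c had 5.94 with sea urchin PRDM14 and CBFA2T and 6.14 with the empty vector. Usp17le and Pramel19 had the same array high as Zscan4e and Dppa2, with smaller differences than Zscan4e (4.25) and larger ones than Dppa2 (1.39). Of 30 listed repressors of 2-cell genes 29 were measured and none was past 2-fold in any pair. Whether the members' differences have to do with those of the other 2-cell genes was not tested.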

How the data were processed

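The authors deposited log2 expression values per probe set, made with RMA per the submitters' processing notes. The RMA version and the genome build behind the probes were not given in the sources used here. One table holds 41345 probe sets on 4 arrays of strip 2, and the other strip of the study was not analysed here. Array platforms give no read depth; the number of arrays, 1 per group, limits the precision, and no test, error or interval was possible.

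Probe sets were named through the platform annotation: 23521 had 1 symbol, 1814 several and 16010 none. Differences were the first array of a pair minus the second, counted at 2-fold with no filter on dim probe sets, and set beside all single-symbol probe sets. A probe set passed the brightness value of 4.84 (the median of all single-symbol values) by its highest array. Named members were those at least 2-fold apart in any of the 6 pairs, the highest mean and the largest range in each family, Pramel6, Pramel7 and Eif1ad. From each of 7 gene lists (other 2-cell genes, their repressors, PRAMEL ligase partners, and markers of stem cells, fibroblasts, germ cells and spermatids) up to 4 genes past 2-fold in a pair qualified, with each gene represented by its brightest probe set on average. The members and lists were chosen with earlier results of these data known, and the motifs after the files were at hand. Gene order and promoters came from RefSeq; promoter identity was from pairwise alignment with Biopython 1.88.

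Alternatives were 1.5-fold, filters at the median and at the 75th percentile (5.65), cyclic loess with limma 3.58.1 in R 4.3.3, and 1 value per gene from the brightest probe set or from the mean. The probe sets paired with several family symbols were also added. Counting was tested on simulated data, in Python 3.11.15 with pandas 2.3.3 and numpy 2.4.6.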

Additional observations from a re-analysis of the deposited data

Results flagged for a closer look

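Probe sets paired with several symbols lie outside the members, and in 3 Pramel groups their values on the array of sea urchin PRDM14 and CBFA2T were above those on the empty vector array. The chromosome 4 group of 6 symbols was higher by up to 2.28 on the log2 scale. The chromosome 5 group of 11 symbols was higher by up to 2.25, and the chromosome 5 group of 4 symbols by up to 1.43. Probe sets of a group share sequence and are not replicates, and the copy that gave the signal was not identified.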

How the results depend on the processing

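Cyclic loess, both ways of taking 1 value per gene and adding the 3 probe sets paired with family symbols alone left every count of members past 2-fold and every median within the limits used here, and the 132 recomputed differences of named members stayed on the same side of 2-fold. Of these, 2 near 0 turned their sign: Usp17ld in CBFA2T minus empty vector, 0.01 as reported and -0.02 after cyclic loess, and Tdpoz2 in CBFA2T minus sea urchin PRDM14, 0.01 with the mean of its probe sets and -0.0033 as reported. At 1.5-fold, 1 member was higher with sea urchin PRDM14 and 1 with mouse PRDM14 than with the empty vector, where none was at 2-fold. With the filter at the median, 12 members were left and the median of mouse PRDM14 minus empty vector was 0.10. The medians of CBFA2T minus sea urchin PRDM14 (-0.01) and of sea urchin PRDM14 minus mouse PRDM14 (0.0041) also had the opposite sign to those over all 50 members (0.04 and -0.02). With the filter at the 75th percentile, 5 were left, of which 1 was at least 2-fold higher with CBFA2T in each of its 3 comparisons, 1 against the empty vector, 1 against sea urchin PRDM14 and 1 against mouse PRDM14. That member is Usp17le, which passes this filter only through its high value on the CBFA2T array, so its passing says nothing about stability. The medians then were 0.13 for mouse PRDM14 minus empty vector, -0.056 for CBFA2T minus sea urchin PRDM14 and 0.079 for sea urchin PRDM14 minus mouse PRDM14, over fewer probe sets. The 45 probe sets of several genes, which are not members, were also added, a choice made after seeing the data. Some of them share sequence or repeat each other's values, and the shares of all such probe sets are given above. Of the 95 probe sets, 18 were then at least 2-fold higher for CBFA2T minus empty vector, with a median of 0.19. For CBFA2T minus sea urchin PRDM14 the count was 16 and the median 0.17, and for CBFA2T minus mouse PRDM14 they were 15 and 0.18. The median of mouse PRDM14 minus empty vector was then 0.04, against -0.01 over the 50 members. Without Usp17le and Pramel19, also added later, 0 members were past 2-fold in these 3 comparisons.

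No paired analysis was possible because each group has 1 array, and for the same reason no result has a replicate. Of the 50 members 38 were below 4.84 on all 4 arrays, and how much of their signal is background was not tested. How far near-identical copies share hybridisation where the annotation gives 1 symbol was not tested.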
